A study of Mus musculus with 10 samples.

Results

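The genes described here encode the proteasome, the protease complex that degrades proteins marked with ubiquitin, in the left ventricle of mice. They were chosen by symbol as the rows of the count table named Psma, Psmb, Psmc, Psmd or Psme followed by a number, leaving out Psmb8, Psmb9, Psmb10 and rows marked as pseudogenes with -ps. The rule found 42 of the 55385 genes in the table. These are 16 genes of the 20S core, 20 of the 19S particle, 5 activators and Psmc3ip, whose symbol matches although it encodes a meiotic recombination factor and which is therefore given apart. The libraries come from C56Bl6 mice (the strain name as labelled), and no genetic change is named for either group. Control (5 libraries) received standard chow, and HFpEF (5 libraries) received high-fat feeding together with L-NAME, which blocks nitric oxide synthases; 6 weeks of this combination are used as a model of heart failure with preserved ejection fraction. Total RNA depleted of ribosomal RNA was sequenced, and the estimated counts per gene were compared between the groups. The labels do not tie each library to its own mouse; the p-values therefore reflect variation between libraries.

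The 20S core is a barrel of stacked rings. Alpha subunits (Psma genes) form the outer rings, which gate the entry of substrates, and beta subunits (Psmb genes) form the inner rings, where Psmb5, Psmb6 and Psmb7 encode the proteolytic sites. The 19S particle caps the barrel with a ring of ATPases (Psmc genes), which unfold and push substrates into the core, and non-ATPase subunits (Psmd genes), which bind ubiquitin chains and remove them. Other activators (Psme genes) open the core without using ATP. Proteasome genes are known to be controlled together by the transcription factor Nfe2l1 (Nrf1), which pairs with small Maf proteins and binds antioxidant response elements in their promoters when proteolysis is impaired. In the heart the proteasome turns over sarcomere and signalling proteins, and interferon replaces its catalytic subunits with Psmb8, Psmb9 and Psmb10.

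Since Nfe2l1 transcripts were higher in HFpEF (below), the 250 bases before each start site were searched on both strands for the letters TGACNNNGC, a core of the antioxidant response element, in RefSeq promoters of build GRCm38.p6. The letters were found for 5 of the 34 members with a promoter in the table (14.7%) and for 3112 of 27025 genes (11.5%). The box CCAAT, bound by NF-Y, was found for 13 of the 34 members (38.2%) and for 37.5% of all genes, and overlap between the motifs was not examined. A match describes letters only and shows no binding. The 5 matches are printed 5′ to 3′ along the gene's strand, with the matched letters in capitals.
Psmb5, chr14:54618023-54618067, minus strand: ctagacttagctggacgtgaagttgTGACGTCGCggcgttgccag
Psmb6, chr11:70525323-70525356, plus strand: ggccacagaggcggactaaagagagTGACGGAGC
Psmd9, chr5:123228134-123228189, plus strand: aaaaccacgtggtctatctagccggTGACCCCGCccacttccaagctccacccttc
Psmc6, chr14:45329574-45329630, plus strand, match on the opposite strand: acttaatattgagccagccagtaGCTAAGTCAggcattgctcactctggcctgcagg
Psmd12, chr11:107479278-107479314, plus strand, match on the opposite strand: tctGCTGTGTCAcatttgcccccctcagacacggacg
The matches began 47, 9, 31, 227 and 247 bases before the start site, in the order printed.

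Library totals ran from 31286355 to 46108710 counts, and the 41 proteasome genes without Psmc3ip took 0.146% to 0.177% of them. Control 4 and Control 5 were the deepest libraries, and the group means of the totals were not told apart (exact permutation test over 252 splits, two-sided p = 0.222). The 7 markers of cardiomyocytes summed to 25053 to 27554 CPM (counts scaled to a common library size) in every library. Of these 7, 1 fell at an adjusted p below 0.05 in edgeR, against 2.09% of all genes. It was Tnnt2, from 1638 ± 58.4 to 1407 ± 59.8 CPM (SD, n = 5, adjusted p = 0.0185). Markers of T and B cells stayed under 2 CPM, and those of fat cells and of testis germ cells under 1 CPM. Of the 4 atrial markers, Nppa, a natriuretic peptide that stressed ventricles also express, fell from 49.3 ± 8.35 to 21.6 ± 6.69 CPM (SD, n = 5; adjusted p = 0.0187), while Myl7, Myl4 and Sln had means under 1 CPM in both groups.

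No proteasome gene differed between the groups at the threshold used, an adjusted p below 0.05 in edgeR's quasi-likelihood test over all 18491 genes that passed a filter on low counts. Of the 41 genes without Psmc3ip, 40 passed that filter, and 0 were called, against 5.33% of all genes tested (3.24% higher and 2.09% lower in HFpEF). DESeq2 and limma voom also called 0, against 8.49% and 4.91% of all genes. At an unadjusted p below 0.05 stood 3 of the 40 (Psma5, Psmd1 and Psmd4), against 20.5% of all genes. In 0 of the 40 did the values of the groups separate without overlap, against 6.81% of all genes. The estimates were small: the median log2 fold change, HFpEF against Control, was -0.02 over the 40 members and -0.01 over all genes, and the median size without regard to sign was 0.05 and 0.11. For 35 of the 40 members (87.5%) the whole 95% interval lay within a 1.2-fold difference either way, and for 38 (95%) within 1.5-fold, while 34% and 72.8% of all genes had intervals that narrow. The 5 members with wider intervals than 1.2-fold were Psmb11, Psmd4, Psmd14, Psmd10 and Psme2b. Intervals narrow with rising counts, and genes of like abundance were not compared. In bulk tissue, fewer cells of a type and less RNA per cell cannot be told apart.

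**Figure D1:**
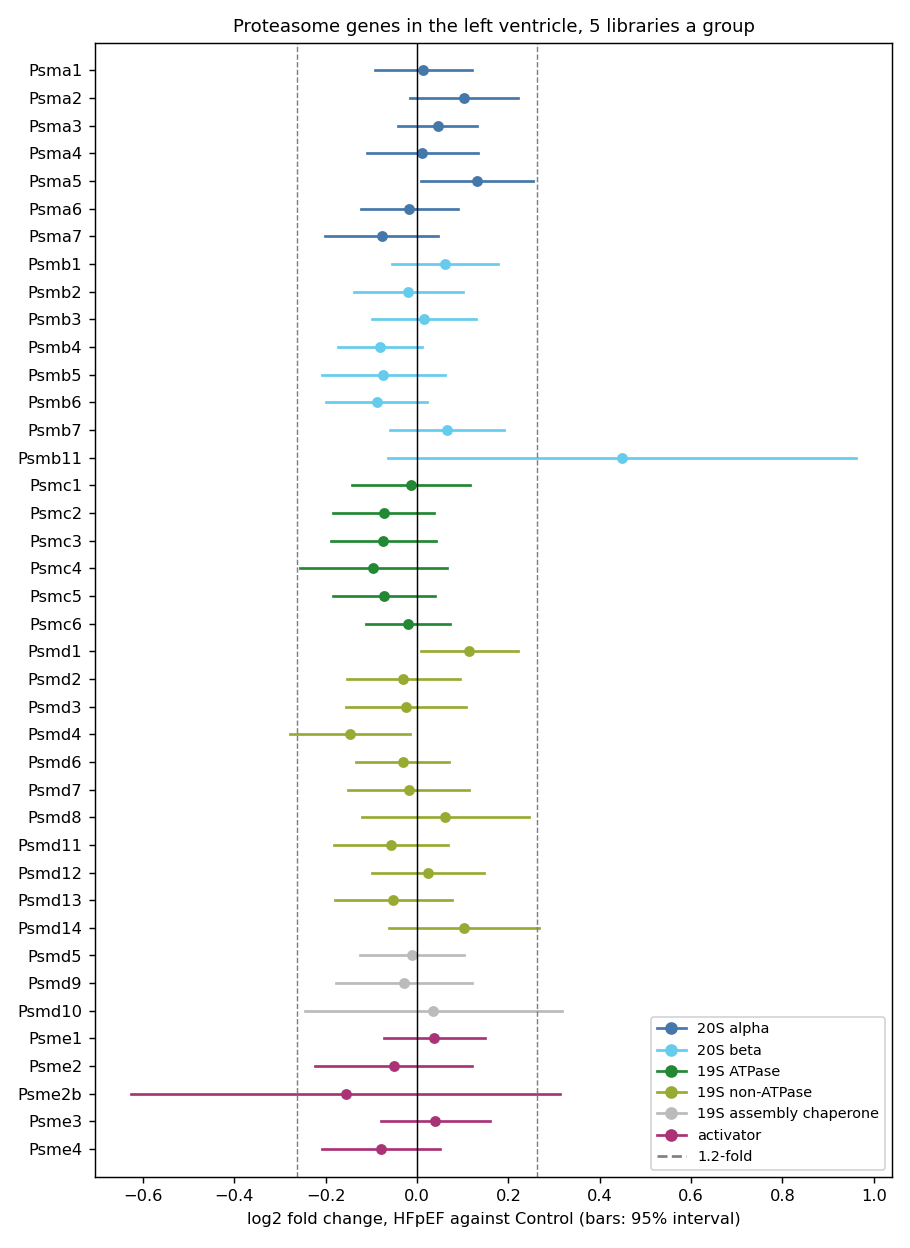
Log2 fold change of each tested proteasome gene, HFpEF against Control, as points with 95% intervals, coloured by class, with dashed lines at a 1.2-fold difference. All 40 points lie between -0.16 (Psme2b) and 0.45 (Psmb11), and 35 of the intervals stay between the dashed lines.

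Levels between genes were compared per length of transcript, as FPKM in Control. Means ran from 8.80 to 58.9 FPKM for the 14 core genes other than Psma8 and Psmb11 and from 9.49 to 30.8 FPKM for the ATPase and non-ATPase subunits of the cap. Psmb7, one of the catalytic subunits, had the highest level in the core (58.9 ± 2.06 FPKM, SD, n = 5). The activator Psme4 (PA200), known for degrading acetylated histones, stood next to it at 55.1 ± 4.96 FPKM. Psmb2, a structural beta subunit, had 52.4 ± 2.45 FPKM. Psme1 had 49.6 ± 2.56 FPKM, a value that depends on the transcript chosen, since the longest principal transcript gives 31.7 FPKM. The highest alpha subunit was Psma1 at 37.7 ± 1.85 FPKM and the lowest tested one Psma2 at 8.80 ± 0.444 FPKM. Both are built into every core particle. The rank of Psma2 depends on its annotated length of 2911 bases, against 1239 for Psma5. Before division by length, Psma2 had a Control mean of 25.6 CPM, above the 14.4 CPM of Psma5. Among the ATPases, Psmc1 was highest (27.2 ± 1.37 FPKM) and Psmc4 lowest (13.9 ± 1.30 FPKM). Psmd2, a scaffold of the cap, led the non-ATPase subunits at 30.8 ± 1.10 FPKM. The chaperones that build the ATPase ring and then leave it were far lower, with Psmd5 at 3.04 ± 0.146, Psmd9 at 2.54 ± 0.145 and Psmd10 at 1.73 ± 0.183 FPKM.

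**Figure D2:**
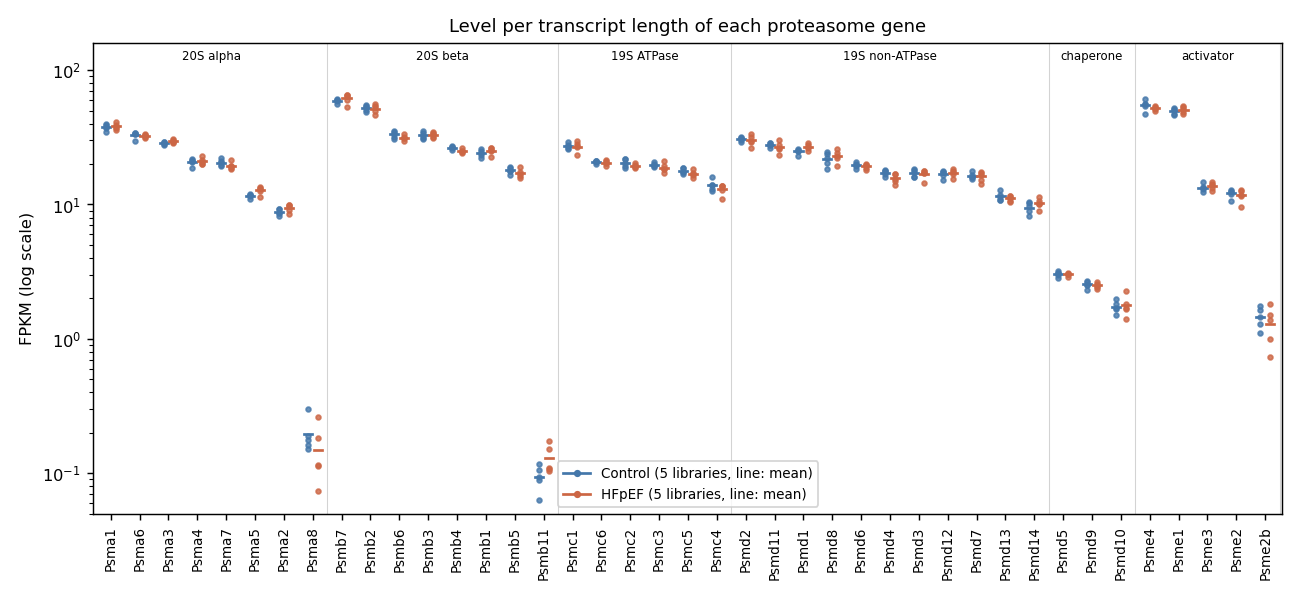
FPKM of all 41 proteasome genes on a log axis, with 1 point per library, a line at each group mean, and genes ordered by their Control mean within each class. The groups overlap for every gene, Psmb7 and Psme4 lead, and the tissue-restricted Psma8 and Psmb11 lie under 0.4 FPKM.

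In the core, the subunits restricted to other organs were near the limit of detection. Psma8, the alpha subunit of the testis proteasome, had 0.238, 0.207, 0.220, 0.406 and 0.259 CPM in Control 1 to 5 and 0.250, 0.156, 0.357, 0.100 and 0.155 CPM in HFpEF 1 to 5, and was not tested. Psmb11, the catalytic subunit of the thymus proteasome, had 0.446, 0.267, 0.377, 0.497 and 0.398 CPM in Control and 0.438, 0.467, 0.454, 0.733 and 0.649 CPM in HFpEF. These values rest on 9 to 22 counts a library, and the groups overlap. The log2 fold change of Psmb11, the largest of all members, was 0.45 ± 0.24 (SE; 95% interval -0.06 to 0.96, adjusted p = 0.314).

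Of the 7 alpha subunits tested, 5 had a positive and 2 a negative estimate, with a median of 0.01 and every interval within 1.2-fold. Psma5, a structural ring subunit (mm10 chromosome 3, 108256926 to 108279974, plus strand), had both the smallest p and the largest estimate among them. Its values were 14.9, 14.3, 14.5, 14.6 and 13.7 CPM in Control and 14.02, 16.6, 16.3, 16.3 and 15.5 CPM in HFpEF. HFpEF 2 to 5 lay above all of Control, and HFpEF 1 lay within the Control range. The log2 fold change was 0.13 ± 0.06 (interval 0.01 to 0.25), with an adjusted p of 0.212. Of the 31-base words in its exons, 61% also occur in other genes, chiefly the pseudogene Gm8394, which held 1.6 and 1 counts on average in the groups, so its count is uncertain.

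Of the 8 beta subunits, 4 estimates were positive and 4 negative. Psmb4, which takes part in assembling the ring, had the smallest p. It had 32.0, 30.3, 31.3, 31.6 and 31.5 CPM in Control and 28.9, 29.7, 28.7, 31.2 and 29.6 CPM in HFpEF. All 5 HFpEF values lay below the Control mean, and HFpEF 4 overlapped the Control range. The log2 fold change was -0.08 ± 0.04 (interval -0.17 to 0.01, adjusted p = 0.307).

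The catalytic subunits were examined one by one because they set the cutting sites, a choice made after their values were known. Psmb5, which carries the chymotrypsin-like site, had 14.5, 12.6, 13.5, 13.4 and 14.3 CPM in Control and 12.1, 14.4, 13.3, 12.3 and 12.9 CPM in HFpEF (log2 fold change -0.07 ± 0.06, adjusted p = 0.555). Psmb6, with the caspase-like site, had 26.8, 25.6, 24.6, 27.8 and 28.2 CPM in Control and 23.6, 25.3, 24.9, 26.5 and 24.9 CPM in HFpEF (-0.09 ± 0.05, adjusted p = 0.362). Psmb7, with the trypsin-like site, had 68.0, 68.9, 64.4, 69.9 and 70.4 CPM in Control and 61.4, 76.2, 74.2, 76.3 and 69.8 CPM in HFpEF (0.07 ± 0.06, adjusted p = 0.572). The groups overlapped for each of the catalytic genes, and the intervals reached no further than -0.21 for Psmb5 and 0.19 for Psmb7. The count of Psmb5 is uncertain, since 71.7% of its 31-base words occur in other genes, chiefly the pseudogene Gm3375, which had 0 counts. The remaining beta subunits, Psmb1, Psmb2 and Psmb3, had estimates of 0.06, -0.02 and 0.02.

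In the 19S particle, 5 estimates were positive and 15 negative, with a median of -0.03, which became 0.0023 without both Control 4 and Control 5. All 6 ATPase genes had negative estimates, from -0.10 (Psmc4) to -0.01 (Psmc1), but the sign of Psmc1 turned without Control 4 (0.02), Control 5 (0.00) or HFpEF 1 (0.04) and that of Psmc6 without HFpEF 5 (0.00). All 6 intervals lay within 1.2-fold. Psmc2 had the smallest p among the ATPases, with 38.7, 34.5, 33.6, 36.1 and 39.2 CPM in Control and 33.3, 33.7, 35.4, 36.2 and 34.6 CPM in HFpEF. The HFpEF values stayed inside or just under the Control range (log2 fold change -0.07 ± 0.05, interval -0.18 to 0.04, adjusted p = 0.467). Psmc4 had the largest estimate, with 16.8, 18.8, 17.5, 18.6 and 21.4 CPM in Control and 14.8, 17.2, 18.5, 18.5 and 18.3 CPM in HFpEF. Control 5 was the highest and HFpEF 1 the lowest library for this gene (-0.10 ± 0.08, interval -0.26 to 0.07, adjusted p = 0.519).

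Among the 11 non-ATPase subunits, 4 estimates were positive and 7 negative, and the members with the smallest p values pointed in opposite directions. Psmd4 (Rpn10), which captures ubiquitin chains (mm10 chromosome 3, 95032694 to 95042614, minus strand), had 24.2, 21.2, 22.4, 23.8 and 23.5 CPM in Control and 18.6, 22.4, 19.9, 20.6 and 22.5 CPM in HFpEF. All 5 HFpEF values were below the Control mean, and HFpEF 2 and HFpEF 5 lay within the Control range. The log2 fold change was -0.15 ± 0.06 (interval -0.28 to -0.02), with an adjusted p of 0.191, the smallest of all members. Psmd1 (Rpn2), a scaffold that docks ubiquitin receptors (mm10 chromosome 1, 86064387 to 86139151, plus strand), is named after its values were seen. It had 78.5, 77.9, 71.5, 78.0 and 80.9 CPM in Control and 78.0, 86.0, 89.4, 84.0 and 81.7 CPM in HFpEF. HFpEF 2 to 5 exceeded all of Control, with HFpEF 1 in the Control range (0.11 ± 0.05, interval 0.01 to 0.22, adjusted p = 0.204). Psmd14 (Rpn11), the deubiquitinase of the lid, had an estimate of 0.10 ± 0.08 (adjusted p = 0.491), with an interval from -0.06 to 0.27. The other 8 ran from -0.06 (Psmd11) to 0.06 (Psmd8), and the chaperones Psmd5, Psmd9 and Psmd10 stood at -0.01, -0.03 and 0.04.

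Of the 5 activators, 2 estimates were positive and 3 negative, with a median of -0.05, which became 0.01 without HFpEF 4. Psme4 (mm10 chromosome 11, 30771726 to 30880361, plus strand) had 396, 366, 307, 353 and 366 CPM in Control and 324, 347, 338, 352 and 331 CPM in HFpEF. The Control libraries spread more widely than HFpEF and held both the highest value and the lowest (log2 fold change -0.08 ± 0.06, interval -0.21 to 0.05, adjusted p = 0.5001). Psme1 and Psme2 encode the PA28 activator that interferon induces and that shapes peptides for antigen presentation. Psme1 had 36.7, 36.1, 33.4, 36.9 and 33.2 CPM in Control and 36.5, 37.7, 34.8, 38.4 and 33.5 CPM in HFpEF (0.04 ± 0.05, adjusted p = 0.740). Psme2 had 11.1, 9.39, 10.9, 10.4 and 11.3 CPM in Control and 10.4, 11.2, 11.3, 8.46 and 10.1 CPM in HFpEF (-0.05 ± 0.08, adjusted p = 0.782). The groups overlapped for both, and for the nuclear activator Psme3 (0.04 ± 0.06, adjusted p = 0.749). Psme2b, a single-exon copy of Psme2, had 1.37, 1.48, 1.23, 0.926 and 1.08 CPM in Control and 1.16, 1.53, 0.616, 1.27 and 0.834 CPM in HFpEF (-0.16 ± 0.22, adjusted p = 0.751). It shares 76.5% of its 31-base words with Psme2, so reads of the pair may have been divided between them. Psmc3ip, no proteasome subunit, had a mean of 1.01 ± 0.275 CPM in Control and 0.859 ± 0.175 CPM in HFpEF (-0.23 ± 0.21, adjusted p = 0.585).

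Low values of many members came from the same libraries. HFpEF 1 held the lowest value of all 10 libraries for 15 of the 40 members (37.5%, against 13.8% of all genes), and Control 3 for 14 (35%, against 15%). These libraries belong to different groups. The median deviation of the 20 cap genes from their Control means was -0.15 on the log2 scale in HFpEF 1 and -0.08 in Control 3, and lay between -0.03 and 0.06 in the other 8 libraries. Summed over a class, the core stood at 462 ± 16.4 CPM in Control and 467 ± 22.6 in HFpEF, the cap at 663 ± 27.3 and 657 ± 38.4, and the activators at 440.1 ± 34.3 and 423 ± 14.9 (SD, n = 5 each). Without HFpEF 1 the median log2 fold change was 0.03 for the core and -0.01 for the cap, and without Control 3 it was -0.01 and -0.04.

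Covariation between libraries of the same group is given as a description, and it was not computed for other genes. After each group mean was removed, a member's Pearson correlation with the median of the other 39 was 0.70 in the middle of the 40 genes and above 0.5 for 30 of them, over 10 libraries that all genes share along with their depth and scaling. It was 0.98 for the core subunit Psmb1 and 0.94 for Psmd1, and low for Psme1 (0.18), Psme2 (0.15), Psmd9 (0.09) and Psme2b (-0.19). The coefficient of variation between libraries had a median of 5.47% in Control and 6.47% in HFpEF over the members, and of 10.4% and 10.6% over all genes tested. This measure falls with rising counts, and genes of like abundance were not compared.

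**Figure D3:**
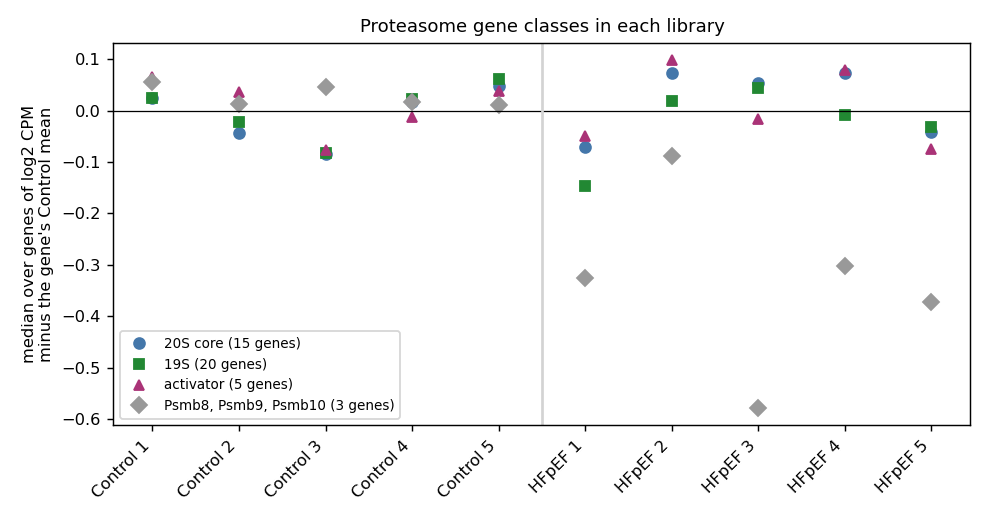
Median over the genes of each class of the log2 CPM minus the gene's Control mean, for each of the 10 libraries. Core, cap and activators lie between -0.15 and 0.10 in both groups. HFpEF 1 and Control 3 are the lowest of their groups for core and cap, and HFpEF 5 and Control 3 for the activators. The 3 interferon-induced catalytic subunits lie below 0 in all 5 HFpEF libraries.

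The catalytic subunits that interferon induces, left out of the rule, had lower estimates than their constitutive counterparts, a difference that was not tested. Psmb8 had 3.87, 4.15, 4.24, 4.15 and 4.14 CPM in Control and 3.38, 3.86, 2.56, 3.33 and 3.18 CPM in HFpEF. Every HFpEF value lay below every Control value, although HFpEF 2 missed the lowest Control by little (log2 fold change -0.33 ± 0.10, adjusted p = 0.0774). The groups separated in this way, in either direction, for 6.81% of all genes. Psmb9 had 4.28, 4.71, 4.71, 3.48 and 3.59 CPM in Control and 3.29, 3.77, 2.76, 2.46 and 3.18 CPM in HFpEF (-0.41 ± 0.13, adjusted p = 0.0771). Psmb10 went from 9.89 ± 1.27 to 8.03 ± 1.47 CPM (-0.30 ± 0.12, adjusted p = 0.164). The groups overlap for both. All 3 stood at an unadjusted p below 0.05, against 20.5% of all genes. By edgeR, DESeq2 or limma voom 0 were called, against 5.33%, 8.49% and 4.91% of all genes. Without HFpEF 2, all 3 passed the threshold (adjusted p = 0.0430, 0.0469 and 0.0367), and without both Control 4 and Control 5 so did Psmb9 (adjusted p = 0.0313).

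Set per length against the constitutive partner it replaces, Psmb9 made up 8.49% ± 1.54 of the pair with Psmb6 in Control and 6.81% ± 1.15 in HFpEF (SD, n = 5). Psmb10 made up 11.3% ± 1.21 and 8.98% ± 0.981 of the pair with Psmb7, and Psmb8 12.3% ± 0.856 and 10.5% ± 1.34 of the pair with Psmb5. The constitutive transcript thus exceeded its counterpart several-fold in every library. These shares are given without a test. Of 13 interferon-stimulated genes, 0 were higher and 4 lower (Irf9, Stat2, Ifi27l2a and Tap2), against 2.09% of all genes called lower, with a median log2 fold change of -0.29, and the call of Tap2 was lost without Control 1, 2 or 3 or HFpEF 3, 4 or 5 (adjusted p up to 0.103). Irf9, a subunit of the factor that transmits the interferon signal, fell from 15.3 ± 1.29 to 11.3 ± 0.587 CPM (-0.43 ± 0.07, adjusted p = 0.00168). The 5 macrophage markers, in cells that express these subunits highly, summed to 60.0 to 98.7 CPM in Control and 50.1 to 69.4 CPM in HFpEF. All 5 markers had negative estimates, and edgeR called 0 of them, against 5.33% of all genes. At an unadjusted p below 0.05 stood 2 of the markers, against 20.5% of all genes, and DESeq2 called 2, against 8.49%. None was at 0, and their part in the levels of Psmb8, Psmb9 and Psmb10 was not tested.

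Of 12 genes that control transcription of the proteasome, 2 rose and 0 fell, against 3.24% of all genes called higher. Nfe2l1 (mm10 chromosome 11, 96817414 to 96829968, minus strand), the factor introduced above, had 234, 239, 210.4, 253 and 233 CPM in Control and 286, 335, 331, 322 and 298 CPM in HFpEF. All 5 HFpEF libraries lay above all of Control. The log2 fold change was 0.43 ± 0.06 (interval 0.30 to 0.55, adjusted p = 0.000739), and it was called in all 19 alternative analyses. Maff, a small Maf protein, had 3.27, 3.58, 3.55, 4.15 and 5.02 CPM in Control and 4.88, 5.24, 5.26, 5.93 and 5.47 CPM in HFpEF, with Control 5 inside the HFpEF range (0.44 ± 0.11, adjusted p = 0.0340). Its call was lost on leaving out Control 1, 2 or 3 or HFpEF 2, 3, 4 or 5, with adjusted p values up to 0.0875. DESeq2 also called Bach1, which competes for the same elements (0.18 ± 0.05, adjusted p = 0.0534 in edgeR and 0.0208 in DESeq2). The genes that release and activate the Nfe2l1 protein, the protease Ddi2 (0.13 ± 0.05, adjusted p = 0.165) and the glycanase Ngly1 (0.04 ± 0.06, adjusted p = 0.775), were not called.

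Beside the Nfe2l1 difference, the 5 members whose promoters carry the letters printed above had log2 fold changes of -0.07 (Psmb5), -0.09 (Psmb6), -0.03 (Psmd9), -0.02 (Psmc6) and 0.02 (Psmd12). None of the 5 intervals extended beyond 1.2-fold, which held for 35 of the 40 members. The letters were found for 14.7% of members with a promoter and 11.5% of all genes, so these 5 are not shown to be Nfe2l1 targets. Transcript levels of Nfe2l1 do not show how much of its protein was processed or active, which was not measured.

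**Figure D4:**
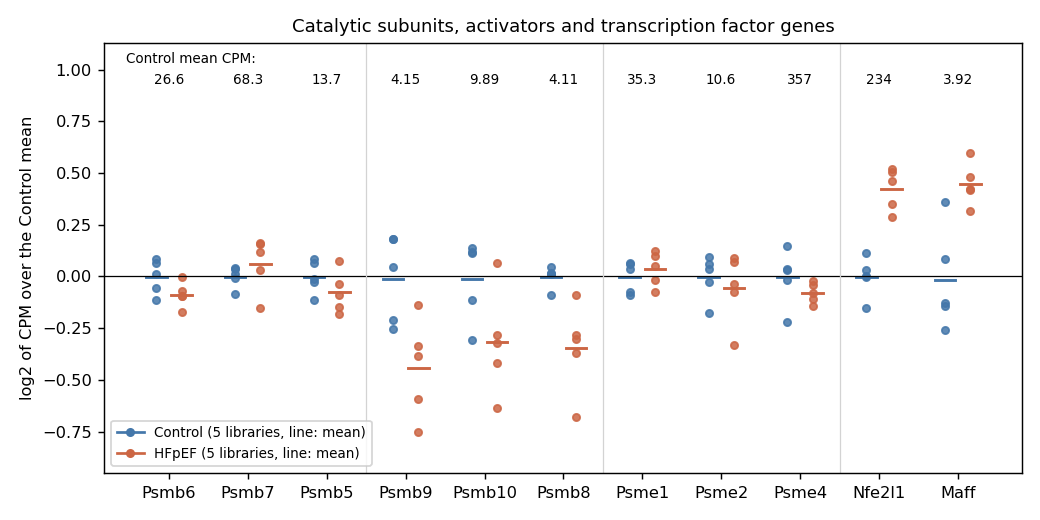
Log2 of CPM over the gene's Control mean in each library, with group means as lines, for constitutive and interferon-induced catalytic subunits, 3 activators, Nfe2l1 and Maff; the numbers at the top are Control means in CPM. The groups overlap for the constitutive subunits and the activators, although all 5 HFpEF points of Psmb6 and of Psme4 lie below 0. The 5 HFpEF points of Psmb8 lie below its lowest Control point, and those of Nfe2l1 lie above all Control points.

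Other genes of the pathway were mostly not called, and their counts stand beside 5.33% of all genes called by edgeR, 8.49% by DESeq2 and 20.5% at an unadjusted p below 0.05. Of 9 assembly chaperones and regulators, 0 were called by edgeR, DESeq2 or limma voom and 0 stood at an unadjusted p below 0.05, with Ipo9, which carries proteasomes into the nucleus, having the smallest p (0.08 ± 0.05, adjusted p = 0.391). Of 15 further cap subunits and bound receptors, deubiquitinases and ligases, edgeR and limma voom called 0, DESeq2 called 1, and 2 stood at an unadjusted p below 0.05. Of 6 genes for ubiquitin and its activating enzymes, edgeR called 0 and DESeq2 1, and 1 had an unadjusted p below 0.05. Of 10 genes for the unfoldase Vcp and its cofactors, edgeR, DESeq2 and limma voom called 0, and 5 estimates were positive and 5 negative. An unadjusted p below 0.05 was reached by 2, in opposite directions. Faf2 had the smallest p (0.12 ± 0.05, adjusted p = 0.194), closely followed by Faf1 (-0.13 ± 0.06, adjusted p = 0.194).

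Of 9 muscle ubiquitin ligases, which mark proteins for the proteasome, 2 rose and 0 fell, against 3.24% and 2.09% of all genes. Asb2, which targets filamins in muscle, had 258, 242, 244, 251 and 216 CPM in Control and 292, 301, 306, 309.9 and 298 CPM in HFpEF. The groups did not overlap (log2 fold change 0.31 ± 0.05, adjusted p = 0.00232), and the call held in all 19 alternatives. Fbxo40 had 109, 116, 104, 113 and 121 CPM in Control and 121, 153, 153, 129 and 131 CPM in HFpEF, the groups touching at the highest Control and the lowest HFpEF value (0.29 ± 0.07, adjusted p = 0.0231). Leaving out Control 1, Control 3, HFpEF 2 or HFpEF 3 ended this call, with adjusted p values from 0.0501 to 0.0691. The atrophy ligases Trim63 (0.10 ± 0.08, adjusted p = 0.564) and Fbxo32 (0.06 ± 0.08, adjusted p = 0.731) were not called.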

How the data were processed

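Per the labels' protocols, left ventricles were flash frozen, and total RNA was depleted of ribosomal RNA before library construction. The submitters' processing notes name Bowtie2 2.1.0, RSEM 1.2.15 and build mm10; whether the counting used strand is not stated there. The values the authors deposited are read as RSEM's expected counts per gene, in which reads matching several transcripts are divided between them. Such counts can be fractional, but the deposited values were already whole numbers, and 0 values were altered by rounding. How they came to be whole is not known. No normalization was applied to them. The 92 ERCC spike-in rows held 0 counts and were left out.

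From these counts, edgeR 4.0.16 (R 4.3.3) was run with TMM scaling, filterByExpr at a minimum count of 10, robust quasi-likelihood fits on group alone, and Benjamini-Hochberg adjustment over 18491 genes at 0.05. Intervals are 95%. CPM use TMM-scaled totals. FPKM divide CPM by the median length of coding transcripts in GENCODE M21. No pair of libraries within a group was a duplicate (chi-square per degree of freedom of 4.61 or more). Alternatives were RLE and upper quartile scaling, scaling without mitochondrial-genome genes, no filter, a filter of 1 CPM in 5 libraries, DESeq2 1.42.0, limma 3.58.1 voom, a replicate block and leaving out each library; leaving out Control 4 and Control 5 together, and FPKM from the longest principal transcript, were added after seeing the data. Members and gene lists were chosen with earlier results of these data known. Named genes are, per class, those with the smallest p, the largest change and the highest and lowest FPKM, and called genes of the other lists or the one with the smallest p. Some genes that this rule names are not reported here, though counts include them.
Exons of Psmd9 (25.5%), Psmc3ip (21.2%), Psmb8 (14.7%), Psmb7 (11.8%) and Psmd13 (10.1%) overlap a gene on the opposite strand, so their reads may include that gene's.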

Additional observations from a re-analysis of the deposited data

Results flagged for a closer look

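In 3 of 112 groups of 5 values checked, 1 library stood apart from the other 4; chance alone gives about 1 in 20. Psma6, an alpha subunit, had 27.0 CPM in Control 3, with the other Control libraries between 30.4 and 31.3. Psmd3, a lid subunit, had 31.1 CPM in HFpEF 1, with the other HFpEF libraries between 36.8 and 38.0. These are the libraries that held the lowest value for 14 and 15 of the 40 members. Psmb8 had 3.87 CPM in Control 1, with the other Control libraries between 4.14 and 4.24.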

How the results depend on the processing

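Over the 19 alternatives, 0 of 777 values for a tested member passed the threshold, and 25 of the 41 tested members, Psmc3ip included, kept their sign throughout. With the replicate block, 0 core, cap or activator members were called; all genes called numbered 744. No general pairing by replicate number was evident: same-numbered libraries correlated at -0.25 to 0.21, and only pair 4 matched its own number best. Such few and weak correlations cannot exclude a pairing. On leaving out 1 library, all genes called ran from 554 to 1101, the 20S core median log2 fold change from -0.012 to 0.038, the 19S median log2 fold change from -0.047 to -0.0015 and the activator median log2 fold change from -0.082 to 0.011. Without both Control 4 and Control 5, the 19S median went to 0.0023. Signs of single members also turned at values near 0. With upper quartile factors Psma4 went to -0.0015. Without both Control 4 and Control 5, Psma6 went to 0.0076, Psmb2 to 0.022, Psmc1 to 0.034, Psmd2 to 0.00073, Psmd3 to 0.036, Psmd5 to 0.0043, Psmd6 to 0.0039 and Psmd7 to 0.032. Leaving out 1 library gave ranges of -0.013 to 0.040 for Psma1, -0.025 to 0.038 for Psma4, -0.051 to 0.0064 for Psma6, -0.046 to 0.021 for Psmb2, -0.0040 to 0.053 for Psmb3, -0.051 to 0.035 for Psmc1, -0.035 to 0.0039 for Psmc6, -0.067 to 0.015 for Psmd2, -0.046 to 0.027 for Psmd3, -0.035 to 0.0099 for Psmd5, -0.045 to 0.025 for Psmd7, -0.050 to 0.00059 for Psmd9, -0.067 to 0.11 for Psmd10, -0.012 to 0.061 for Psmd12 and -0.086 to 0.011 for Psme2. The cause of these turns was not tested. Psmb11 and Psmc3ip do not pass the stricter filter. Depth limits Psma8, Psmb11 and Psme2b most, with fewer than 2 CPM each.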
